A study of Rattus norvegicus with 119 samples.

Results

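MicroRNAs (miRNAs) were compared between male rats given pioglitazone at 63 mg/kg/day and male rats given it at 16 mg/kg/day, both for 28 days. The arrays were chosen by their labelled drug, dose, sex and day, which gave 5 arrays at the higher dose and 4 at the lower dose, 9 of the 119 arrays in the series. All were Sprague-Dawley rats dosed by mouth once a day with pioglitazone hydrochloride in 10 mL/kg of a methylcellulose vehicle, and the bladder epithelium (urothelium) was scraped off and frozen 1 day after the last dose. Ages are not given in the labels. The rest of the series holds vehicle, both pioglitazone doses and rosiglitazone in males and females at days 3, 28 and 90. Per the labels 10 rats per sex and group were dosed and 5 were profiled, so the arrays were taken as separate animals. The low dose is 16 mg/kg/day in every sample label, and the series' design text gives another value.

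miRNAs are short RNAs that pair with messenger RNAs through a seed near their 5′ end and lower the output of their targets. Each is cut from a hairpin, of which one strand usually builds up while the other, marked here with an asterisk, is mostly lost. Pioglitazone is a thiazolidinedione, an agonist of PPAR gamma (Pparg), the nuclear receptor that drives fat cell differentiation and that is also present in urothelium. The contrast asks which urothelial miRNAs differ between a higher and a lower dose of this drug.

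The table holds log2 intensities of 301 miRNAs, from 2.69 to 16.87 over the whole series. The lowest values form a floor near 3, where differences are compressed, and no detection calls came with the table. Medians of the 4 arrays at the lower dose were 3.87, 5.46, 5.17 and 5.06, and those of the 5 arrays at the higher dose were 5.25, 5.21, 5.56, 4.33 and 3.91. Their means were 4.89 ± 0.70 (SD, n = 4) and 4.85 ± 0.70 (SD, n = 5), a difference of -0.04 (two-sided exact permutation test, p = 0.976). Replicate 1 at the lower dose stood apart, with a mean correlation of 0.858 to its own group and a low level of several abundant miRNAs. Replicate 1 at the higher dose correlated best with replicate 2 of the lower dose (r = 0.979), and it was intermediate for many of the miRNAs described below. For some results that rest on these arrays, values without them are also given, a choice made after seeing the data.

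miR-200a, a member of the epithelial miR-200 family, lay between 12.48 and 14.05 on the 9 arrays, and miR-205, a miRNA of stratified epithelia, between 12.36 and 13.79, while minor strands such as miR-183* lay near the floor. Smooth muscle miR-145 was at 3.58, 4.82, 7.09 and 3.66 at the lower dose and at 6.17, 11.84, 5.12, 12.22 and 3.60 at the higher dose. Muscle miR-1 was likewise high on replicates 2 and 4 of the higher dose (9.69 and 9.57) and between 3.30 and 5.08 on the other arrays. Levels of muscle miRNAs thus differed between scrapings of one group, and for the 24 miRNAs lower at the higher dose these 2 arrays were at the level of replicates 3 and 5. In bulk scrapings, fewer cells of a type and less RNA per cell cannot be told apart.

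The sequences below are those of the miRNAs on which the comparison turns, from RefSeq on the rat build GRCr8, 5′ to 3′, with the seed (bases 2 to 8) in capitals. The first pair shares a seed.
miR-211: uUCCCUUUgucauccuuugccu
miR-204: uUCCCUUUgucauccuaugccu
The next 3 are the minor strands of let-7 hairpins and share another seed, and the minor strand of let-7e has a seed of its own.
let-7b*: cUAUACAAccuacugccuuccc
let-7a-1*: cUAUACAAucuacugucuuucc
let-7f-1*: cUAUACAAucuauugccuucc
let-7e*: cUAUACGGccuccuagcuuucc
The following 5 had large differences and are shown for their base content, and miR-3596b for its match to let-7d.
miR-328b-3p: cUGGCCCUcucugcccua
miR-207: cUUCUCCUggcucuccucccuuu
miR-702-3p: uGCCCACCcuuuaccccacucca
miR-349: cAGCCCUGcugucuuaaccucu
miR-3596b: aACUAUGCaaccuacuaccu
The last 3 belong to the miRNAs that were higher at the higher dose, with the opposite strand of one of them.
miR-378: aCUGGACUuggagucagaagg
miR-191: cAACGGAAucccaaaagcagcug
miR-191*: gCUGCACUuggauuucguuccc

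Between the doses, 27 of the 301 miRNAs (8.97%) differed at an adjusted p under 0.05, with 24 lower (7.97%) and 3 higher (0.997%) at 63 than at 16 mg/kg/day. The largest differences were those of miR-211, let-7b*, miR-328b-3p, miR-207 and miR-702-3p, which were well above the floor on the 4 arrays of the lower dose and near it on most arrays of the higher dose. The 3 higher were miR-378, miR-320 and miR-191. With each array's median as a covariate the split was 25 lower and 14 higher, these 27 included. With each array centred on its median it was 15 lower and 3 higher, with 15 of the 24 lower and 0 of the 3 higher among them, and miR-154, let-7a-1*, miR-26b*, miR-378, miR-320 and miR-191 among the calls lost. The test was limma's, with 1 variance per miRNA taken over all 24 groups of the series, so the standard errors (SE) below are not those of the 9 arrays alone. Fitted on these 2 groups alone it gave 16 calls, 15 lower and 1 higher, all of them among the 27. Fitted on the 4 male day-28 groups it gave 0 calls (34 miRNAs at an unadjusted p under 0.05), with 1 variance per miRNA from those groups. Those groups include the vehicle males, in which miR-211 had an SD of 3.96, beside 0.78 at the lower and 1.38 at the higher dose. The part of that spread in the 0 calls was not tested. All 24 lower miRNAs have series means below the median miRNA, so none of them is among the 150 brighter miRNAs, of which a separate fit called 0 (15 unadjusted). The exact permutation test over the 126 splits of the 9 arrays gave 66 miRNAs at an unadjusted p under 0.05, a smallest p of 0.00794 and a smallest adjusted p of 0.177, so 0 passed.

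The groups of arrays did not overlap for 29 miRNAs (9.63%), 18 lower (5.98%) and 11 higher (3.65%) at the higher dose. Of the 24 called lower, 15 were among these. The 9 whose arrays overlapped were miR-702-3p, let-7f-1*, miR-99b*, miR-3563-5p, miR-34b*, miR-340-3p, miR-298, miR-336 and miR-369-5p. Without replicate 1 of both groups the overlap was gone for 9 of these 9. These arrays were picked after seeing the data, and that of the higher dose was the highest of its group for all 24. The count is thus a description and carries no test. Non-overlapping and not called were miR-2985, miR-337 and miR-429, all lower, and 8 higher miRNAs, among them miR-193*, miR-208*, miR-211*, miR-423* and miR-379.

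miR-211 and miR-204 share their seed and lie in different members of one channel gene family, miR-211 (chr1:127189353-127189374, plus strand) within Trpm1 and miR-204 (chr1:229743493-229743514, plus strand) within Trpm3. miR-211 is known from melanocytes, and miR-204 favours fat over bone cell differentiation of mesenchymal progenitors. miR-211 was at 8.14, 7.65, 7.31 and 9.10 at the lower dose and at 6.30, 3.15, 3.19, 3.37 and 3.20 at the higher dose. Replicate 1 was the only array of the higher dose above the floor, and it still lay below every array of the lower dose. The log2 difference was -4.21 (SE 0.72, 95% interval -5.64 to -2.78, adjusted p = 7.12e-06; exact permutation p = 0.0159). miR-204 was at 5.94, 6.39, 6.85 and 7.62 against 5.61, 4.40, 3.74, 3.71 and 3.43, with a difference of -2.52 (SE 0.80, limma adjusted p = 0.0275). Its groups did not overlap, but the gap between them was narrow at replicate 1 of each dose. The call for miR-204 was lost under 8 of 20 alternatives, 5 of which left out 1 array, and its difference ran from -3.13 to -2.21 over them.

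The minor strands of the let-7 hairpins were lower at the higher dose in 4 of the 5 measured, against 7.97% of all miRNAs. The main let-7 strands, which repress growth genes such as the Ras family, were called in 0 of 8, too few to show anything about them as a set. let-7b* (chr7:118684098-118684119, plus strand) was at 7.76, 7.14, 7.06 and 8.83 at the lower dose and at 6.51, 3.14, 3.38, 3.33 and 3.13 at the higher dose. As for miR-211, the groups did not overlap, and replicate 1 lay between the other arrays of its group and the lower dose. The difference was -3.80 (SE 0.66, limma adjusted p = 9.50e-06). let-7e* (chr1:67350288-67350309) was at 6.63, 5.32, 5.15 and 5.54 against 4.14, 3.20, 3.16, 3.03 and 3.54, a difference of -2.25 (SE 0.41, limma adjusted p = 1.90e-05). let-7a-1* and let-7f-1*, which lie within 20000 bases of each other on chromosome 17, differed by -1.37 (SE 0.28) and -2.19 (SE 0.42). For let-7f-1* replicate 1 of the lower dose was at 3.98, below replicate 1 of the higher dose at 4.48. The fifth, let-7d*, was at 9.29, 7.18, 6.93 and 8.62 against 7.15, 4.60, 5.70, 5.81 and 5.15 and was not called (-2.32, SE 0.84, limma adjusted p = 0.0726).

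miR-3596b lies on chromosome 17 opposite the let-7d hairpin (chr17:16322275-16322294, minus strand). Its 20 bases pair with let-7d in 20 of 20 positions and with let-7a in 19, by counting complementary bases over the aligned strands. It was at 7.22, 5.39, 5.17 and 6.52 at the lower dose and at 5.08, 3.35, 3.10, 3.26 and 3.55 at the higher dose. The groups just failed to meet at 5.17 and 5.08. The difference was -2.41 (SE 0.45, limma adjusted p = 2.09e-05).

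**Figure D1:**
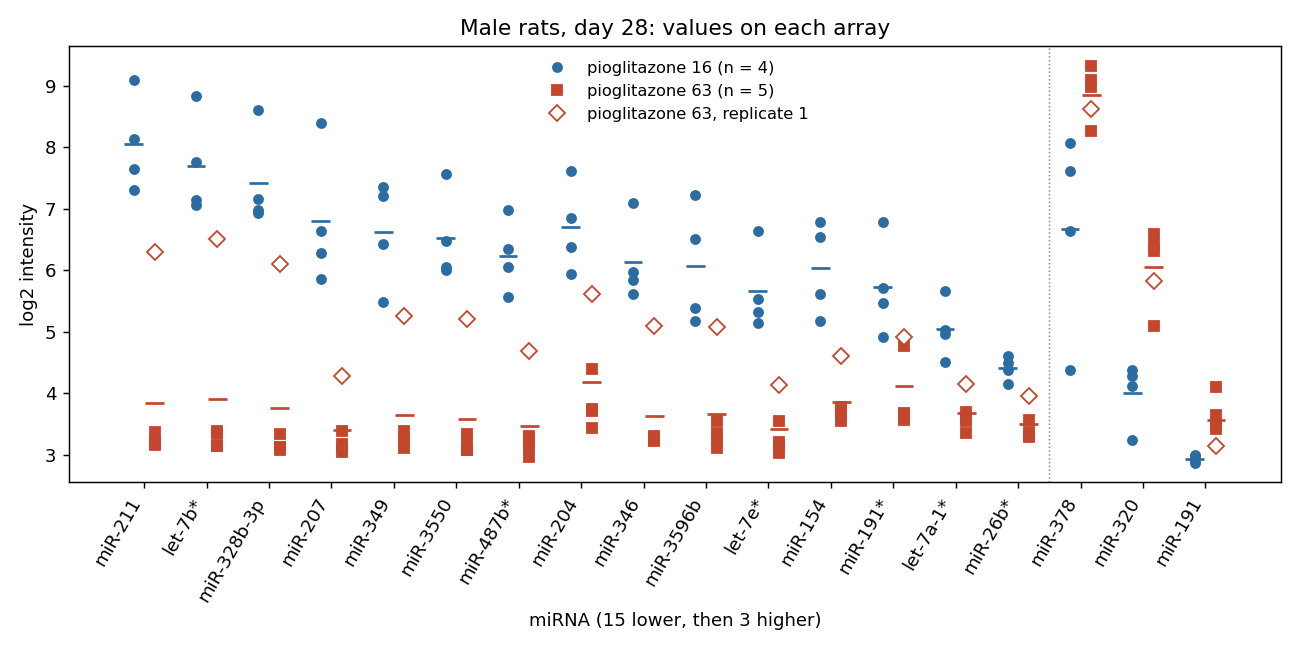
Log2 intensity of 18 named miRNAs (15 lower, then 3 higher at 63 mg/kg/day) on each of the 9 arrays, circles for 16 and squares for 63 mg/kg/day, bars for group means. The open diamond is replicate 1 of the higher dose, which lies above the other 4 arrays of its group for each of the 15 lower miRNAs.

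Other lower miRNAs had differences of like size. miR-328b-3p (chr14:44016793-44016810) was at 6.99, 7.17, 6.93 and 8.61 at the lower dose and at 6.11, 3.12, 3.13, 3.34 and 3.07 at the higher dose. Replicate 4 of the lower dose and replicate 1 of the higher dose each stood above the rest of their group, and the groups did not overlap. Its difference was -3.67 (SE 0.68, limma adjusted p = 1.90e-05). Of its relatives, miR-328a was at 8.84, 8.21, 7.88 and 9.45 against 7.92, 6.76, 6.65, 7.93 and 5.30, and was not called (-1.68, SE 0.87, limma adjusted p = 0.295). miR-207, within Dnaja1 on chromosome 5 (chr5:60638847-60638869), was at 8.39, 6.29, 5.86 and 6.65 against 4.28, 3.17, 3.10, 3.04 and 3.39. That is a difference of -3.40 (SE 0.41, limma adjusted p = 2.81e-10), and here replicate 1 of the higher dose was closer to its own group. The SDs of miR-207 were 1.11 at the lower and 0.51 at the higher dose. They were 0.10 and 0.08 at 16 mg/kg/day in males at days 3 and 90, near the floor, and 2.75 in vehicle males at day 28. All groups enter its variance, so its SE and p-value do not reflect the spread of the 9 arrays alone. miR-702-3p, within Plod3, was at 9.26, 6.69, 5.87 and 8.24 against 6.04, 3.63, 4.01, 3.90 and 3.84. Its difference of -3.23 (SE 0.54, limma adjusted p = 5.24e-06) was large, although replicate 3 of the lower dose fell below replicate 1 of the higher dose.

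miR-349, which lies on the minus strand within Plxnb2, was at 7.22, 6.43, 5.49 and 7.35 at the lower dose and at 5.25, 3.21, 3.11, 3.25 and 3.38 at the higher dose (-2.98, SE 0.57). miR-3550, one of the late-numbered rat miRNAs, was at 6.01, 6.48, 6.05 and 7.57 against 5.22, 3.08, 3.07, 3.18 and 3.33 (-2.95, SE 0.58). miR-346, from the glutamate receptor gene Grid1, was at 5.84, 5.62, 5.98 and 7.10 against 5.09, 3.24, 3.23, 3.25 and 3.31 (-2.51, SE 0.46). In all 3 the groups were apart and replicate 1 was the high array of the higher dose. Of the 8 late-numbered miRNAs (miR-3550, miR-3596b and their neighbours in number), 3 were called lower, beside 7.97% of all miRNAs, and 0 higher. Their median difference was 0.22 beside 0.34 for all miRNAs, and -0.16 beside 0.08 without replicate 1 of the lower dose. miR-26b*, the minor strand of a hairpin within the phosphatase gene Ctdsp1, had the smallest difference of the 24, at 4.49, 4.38, 4.15 and 4.61 against 3.95, 3.37, 3.57, 3.32 and 3.28 (-0.91, SE 0.24).

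Among the lower miRNAs whose arrays overlapped, replicate 1 of one or both doses was an array in the overlap. miR-99b*, whose hairpin neighbours that of let-7e on chromosome 1, was at 6.13, 6.14, 5.48 and 7.15 at the lower dose and at 6.23, 3.61, 4.17, 3.45 and 3.73 at the higher dose (-1.99, SE 0.41). miR-34b*, from a hairpin induced by p53, was at 3.55, 5.87, 4.94 and 7.23 against 5.13, 3.14, 3.14, 3.29 and 3.22 (-1.81, SE 0.51). miR-340-3p, within Rnf130, was at 5.08, 5.84, 4.94 and 7.14 against 5.23, 3.73, 4.69, 3.64 and 3.45 (-1.60, SE 0.44). For miR-99b* and miR-340-3p it was the high replicate 1 of the higher dose that overlapped, and for miR-34b* also the low replicate 1 of the lower dose. miR-298, from the imprinted Gnas region in mouse, and miR-336, within Mapk9, also had a low replicate 1 at the lower dose, at 3.55 and 3.51, and differed by -1.54 (SE 0.40) and -1.16 (SE 0.39). miR-3563-5p differed by -1.95 (SE 0.48) and miR-369-5p by -1.06 (SE 0.33), which was -0.81 and not called without replicate 1 of the lower dose.

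Of the 32 measured miRNAs of the imprinted Dlk1-Dio3 cluster, 3 were lower and 0 higher, a share near the 7.97% lower among all miRNAs, and the median difference was -0.02. The 3 were miR-487b*, miR-154 and miR-369-5p, which lie within 20000 bases of each other on chromosome 6. miR-487b* was at 6.05, 6.34, 5.56 and 6.97 at the lower dose and at 4.69, 3.12, 2.96, 3.23 and 3.30 at the higher dose (-2.77, SE 0.50). miR-154 was at 6.79, 5.61, 5.18 and 6.54 against 4.61, 3.70, 3.65, 3.78 and 3.55 (-2.17, SE 0.54). Neither pair of groups overlapped. miR-337, of the same cluster, was at 5.45, 4.32, 4.23 and 4.56 against 3.89, 3.52, 3.38, 3.52 and 3.59, apart on the arrays and not called (-1.05, limma adjusted p = 0.0909).

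The 3 miRNAs called higher had smaller margins. miR-378 (chr18:57128925-57128945, minus strand) lies within Ppargc1b, a coactivator gene of nuclear receptors, and is known from mitochondrial metabolism and fat cells. It was at 4.37, 8.08, 7.62 and 6.64 at the lower dose and at 8.63, 9.10, 8.27, 8.98 and 9.33 at the higher dose. All 5 higher-dose arrays were above all 4 lower-dose arrays, with a gap of 8.08 to 8.27 and replicate 1 of the lower dose far below the rest. The difference was 2.18 (SE 0.73, limma adjusted p = 0.0415), and without that replicate it was 1.42 (SE 0.77, limma adjusted p = 0.401). miR-320, whose precursor is made without Drosha, was at 3.23, 4.28, 4.38 and 4.11 against 5.83, 6.31, 6.41, 6.60 and 5.09 (2.04, SE 0.67, limma adjusted p = 0.0346). Without replicate 1 of the lower dose it was 1.79 (SE 0.72, limma adjusted p = 0.141). miR-191, a widely expressed miRNA within Dalrd3, was near the floor at 2.97, 2.99, 2.90 and 2.87 against 3.15, 3.65, 4.10, 3.47 and 3.42 (0.62, SE 0.21, limma adjusted p = 0.0428). Without replicate 1 of the lower dose it was 0.64 (SE 0.23, limma adjusted p = 0.0655). None of the 3 is thus called without that array, and miR-378, miR-320 and miR-191 lost their call in 13, 10 and 11 of their 21, 21 and 20 alternatives.

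For 11 of the 24 lower miRNAs the other strand of the hairpin was measured, a comparison chosen after the values were seen. The other strand was called lower in 0 of the 11, beside 7.97% of all miRNAs, and higher in 1, beside 0.997%. With so few hairpins these counts show nothing about other strands as a set. The 1 is miR-191 beside miR-191* (chr8:118142683-118142704). miR-191* was at 5.71, 5.46, 4.92 and 6.79 at the lower dose and at 4.91, 3.62, 4.76, 3.57 and 3.68 at the higher dose (-1.61, SE 0.36, limma adjusted p = 4.53e-04). This call was lost when the 2 groups were fitted alone, as was that of miR-191. The other strand's difference was above 0 in 9 of 11, beside 208 of all 301 miRNAs, and in 7 of 11, beside 165 of 301, without replicate 1 of both groups. let-7b was at 12.46, 13.11, 12.90 and 14.13 against 14.09, 13.17, 14.27, 13.25 and 13.29, a difference of 0.46 (SE 0.39) beside -3.80 for let-7b*. let-7e was at 5.95, 10.83, 10.67 and 11.38 against 11.53, 11.03, 11.52, 10.89 and 10.72. Its difference of 1.43 (SE 0.52, limma adjusted p = 0.0726) was 0.18 (SE 0.46) without replicate 1 of the lower dose, the low array. miR-99b (1.57, SE 0.72) likewise fell to 0.38 (SE 0.72) without it, beside -1.99 for miR-99b*. miR-211*, the opposite strand of miR-211, was at 3.48, 3.97, 4.26 and 3.80 against 4.57, 4.48, 4.83, 4.35 and 4.99, apart on the arrays and not called (0.77, SE 0.67, limma adjusted p = 0.548). Asterisk strands made up 9 of the 24 lower miRNAs (37.5%) and 71 of the 301 measured (23.6%).

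**Figure D2:**
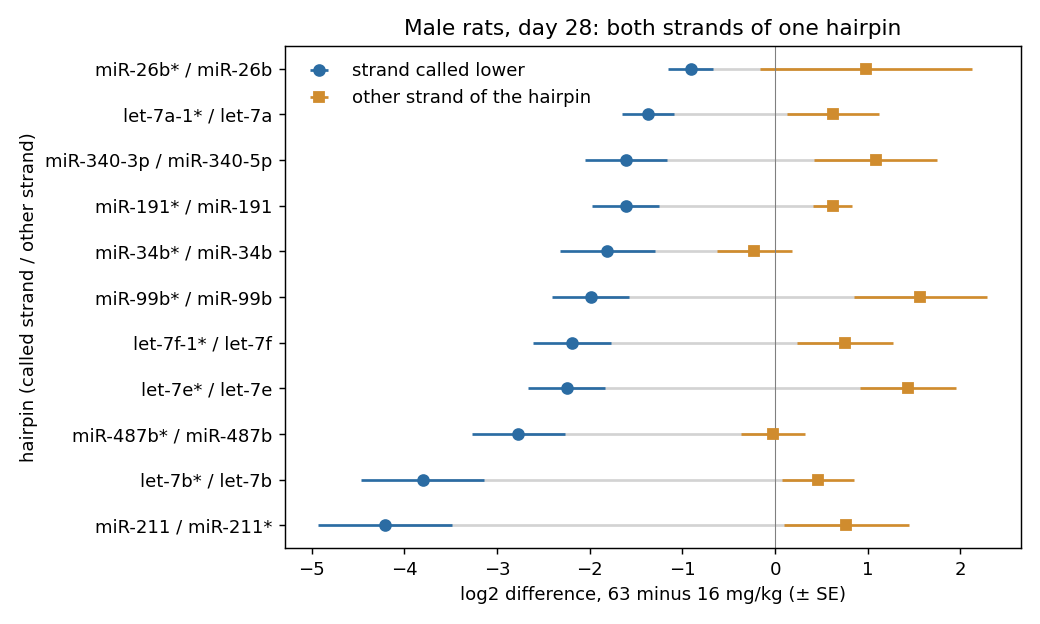
Log2 difference (63 minus 16 mg/kg/day, males, day 28) with its SE for the 11 hairpins that had a lower strand and a second measured strand. Circles are the strands called lower, from -0.91 to -4.21, and squares the other strands, from -0.22 to 1.57.

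The lower miRNAs were rich in pyrimidines (C and U), which was looked at only after their sequences had been seen. RefSeq sequences were matched for 256 of the 301 miRNAs (85.0%) and for 22 of the 24 lower ones. C and U made up a median of 72.1% of bases in the lower miRNAs (range 47.8% to 91.3%) and 50.0% in all 256. At least 60% C and U was found in 19 of 22 lower miRNAs (86.4%) and in 57 of 256 (22.3%). Among 76 miRNAs that were not called and had series means within the range of the lower ones, 11 (14.5%) reached it. miR-207 held 91.3%, miR-211 86.4% and miR-204 81.8%, while the higher miR-378 held 33.3% and miR-191 39.1%. In those 3 lower miRNAs the first base and the whole seed are C or U, and miR-207 has a further long run after its seed. Across the 256 miRNAs the share of C and U and the dose difference had Pearson's r of -0.50 and Spearman's rho of -0.37. These points share their 9 arrays and are not independent, so the coefficients are descriptions.

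**Figure D3:**
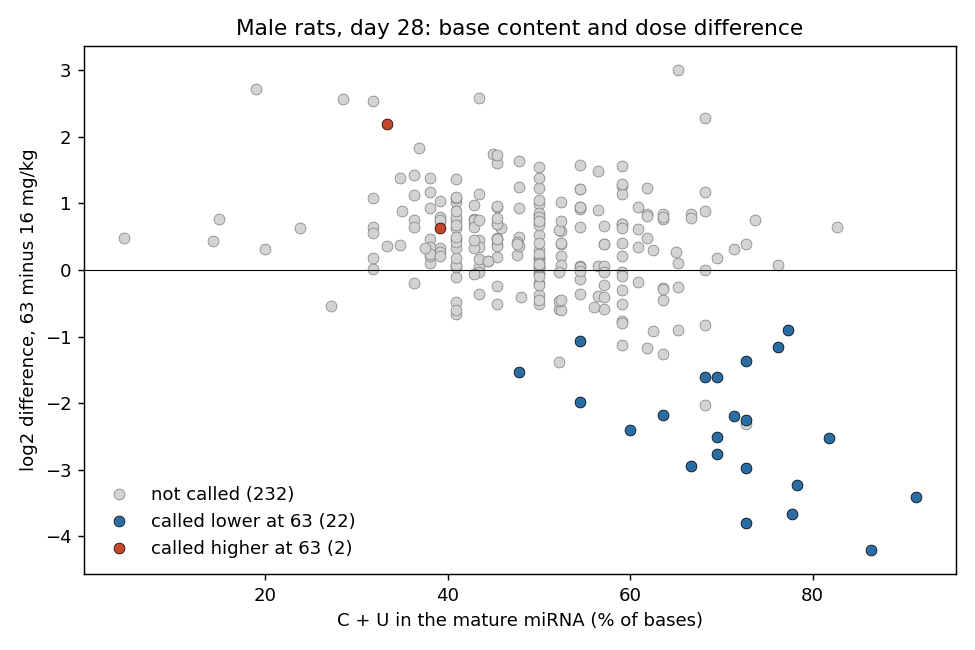
Share of C and U in the mature sequence (% of bases) against the log2 dose difference for the 256 miRNAs with a RefSeq sequence. Of the 22 lower miRNAs with a sequence (blue), 19 have at least 60% C and U, and the 2 higher ones (red) lie at 33.3% and 39.1%.

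As a set, the 24 lower miRNAs had mean levels of 6.03, 5.86, 5.43 and 6.93 on the arrays of the lower dose. The higher dose had 5.02 on replicate 1 and 3.36, 3.45, 3.39 and 3.41 on replicates 2 to 5. These levels describe miRNAs chosen for this difference and carry no test. Replicate 1 was the highest array of its group for 24 of 24 and lay between the mean of its other arrays and that of the lower dose for 23 of 24. Without it and replicate 1 of the lower dose, 32 miRNAs were called, 31 lower and 1 higher, with 23 of the 24 lower and 1 of the 3 higher among them. The other 103 arrays of the 21 groups apart from males at day 28 on vehicle or pioglitazone had a median of 3.47 and a range of 3.32 to 6.27, of which 2 lay above the lowest array of the lower dose. The vehicle males at day 28 had a median of 8.62, with 3 arrays between 8.22 and 9.20 and 1 at 3.34. For 24 of 24 the highest of the 24 group means was in these vehicle rats and the second highest in the lower-dose rats. The choice of these miRNAs favours a high rank of the lower dose, so the ranks are a description only.

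**Figure D4:**
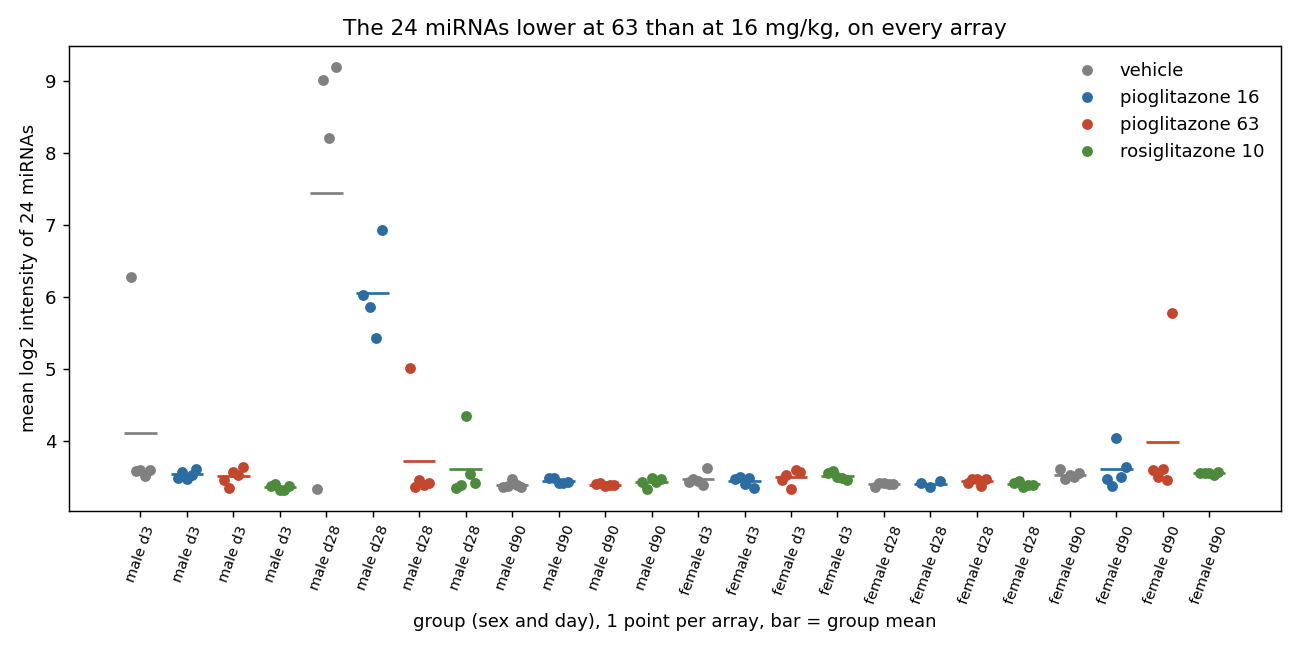
Mean log2 intensity of the 24 miRNAs lower at 63 than at 16 mg/kg/day on each of 116 arrays, by group, with bars for group means. Levels above 5 occur on all 4 arrays of the lower dose, on replicate 1 of the higher dose, on 3 vehicle males at day 28, on 1 vehicle male at day 3 and on 1 female given 63 mg/kg/day at day 90.

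The dose difference at day 28 was set against that in males at days 3 and 90, with 5 arrays per dose and day. It differed from the mean of those days for 20 miRNAs (6.64%), 19 lower and 1 higher, and the 19 were all among the 24. This comparison holds the same day-28 arrays as the main one, so the shared calls are not separate support for it. The dose difference itself was called for 0 miRNAs at day 3 (3 unadjusted) and for 1 at day 90 (0.332%; 23 unadjusted), which was miR-144* and not among the 27. miR-211 differed between the doses by -0.01 at day 3 and 0.06 at day 90, and its day-28 difference differed from their mean by -4.23 (SE 0.86, limma adjusted p = 6.16e-04). On those days its means were near the floor at both doses. They were 3.33 (16 mg/kg/day) and 3.32 (63 mg/kg/day) at day 3, and 3.38 and 3.44 at day 90. The same held for let-7b* and miR-207, so a fall at the higher dose could hardly show on those days. let-7b* gave -0.03 and -0.04 at days 3 and 90 and a difference of -3.77 (SE 0.80), and miR-207 gave 0.05 and 0.06 and -3.45 (SE 0.50). The higher one was miR-144 of the red cell cluster, by 3.12 (SE 0.92, limma adjusted p = 0.0189). At day 28 it was at 4.01, 5.11, 5.11 and 3.31 against 5.95, 5.82, 5.46, 8.32 and 5.10 and not itself called (1.74, SE 0.77), while at day 90 its dose difference was -2.51 (SE 0.73). The 3 miRNAs higher at day 28 were not called in this comparison. For miR-378 the dose difference was 2.21 in males at day 90, beside 2.18 at day 28 and -0.38 at day 3.

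Against females at day 28 (5 arrays at the higher and 3 at the lower dose) the dose difference was unlike for 18 miRNAs (5.98%), 16 lower in males and 2 higher. The male arrays are again those of the main comparison, so calls shared with it are not separate support. The 16 were all among the 24, with miR-211 at -4.34 (SE 1.06, limma adjusted p = 0.00954), let-7b* at -3.70 (SE 0.98) and miR-702-3p at -3.35 (SE 0.80). In females their dose differences were 0.13, -0.10 and 0.11. There miR-211 averaged 3.29 at the lower and 3.42 at the higher dose, and let-7b* 3.33 and 3.24. These means are near the floor, so a fall at the higher dose could hardly show. The 2 higher, miR-664-1* (3.34, SE 1.05) and miR-376b-5p (0.85, SE 0.25), had dose differences of -2.23 (SE 0.77, not called) and -0.89 (SE 0.18) in females, beside 1.11 and -0.04 in males. miR-376b-5p was the 1 miRNA (0.332%; 7 unadjusted) whose dose difference was called in females. This comparison gave 0 calls when the arrays marked as failing quality control were kept or when arrays were centred, and 4 without replicate 4 of the lower dose.

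**Figure D5:**
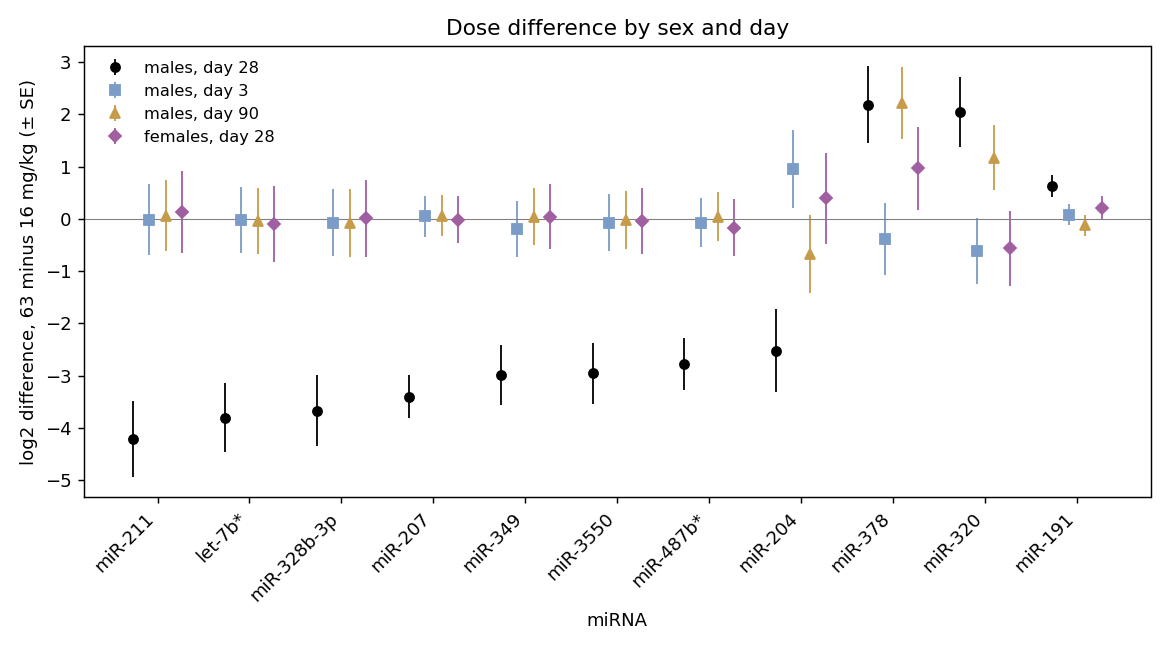
Log2 dose difference (63 minus 16 mg/kg/day) with its SE for 11 named miRNAs in males at days 28, 3 and 90 and in females at day 28. For miR-211 the 4 values are -4.21, -0.01, 0.06 and 0.13, and for miR-378 they are 2.18, -0.38, 2.21 and 0.97. In males at days 3 and 90 and in females, miR-211 was near the floor at both doses.

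In the lists of known urothelial and signalling miRNAs that follow, 0 were called between the doses. With 8.97% called over all miRNAs, 0 calls in lists of this size show nothing about those groups. Of the 13 epithelial miRNAs (the miR-200 family, the miR-183 cluster, miR-203 and miR-205) 0 were called, with a median difference of 0.04. miR-429 of the miR-200 family, which keeps epithelial cells from a mesenchymal state, was at 12.93, 12.54, 12.85 and 12.49 against 12.32, 12.18, 12.44, 11.24 and 12.41. Its groups were apart by little and it was not called (-0.59, SE 0.67, limma adjusted p = 0.629). The 13 members of the growth-linked miR-17-92 cluster and its paralogs (median 0.45), the 8 of the cell-cycle family of miR-15, miR-16 and miR-322 (0.97), the 5 of the matrix-regulating miR-29 family (-0.45) and the 11 of the miR-30 family (0.35) held 0 calls, beside 8.97% of all miRNAs. So did the 7 strands of the miR-23, miR-27 and miR-24 clusters, the 5 of the miR-181 family, the pairs miR-221 and miR-222 and miR-103 and miR-107, and the 4 neural miRNAs. Without replicate 1 of the lower dose the epithelial median was -0.34 and that of the miR-30 family 0.06. Without replicate 1 of both groups the medians of the miR-17-92 and miR-15, miR-16 and miR-322 lists were -0.19 and -0.02. That of the 8 main let-7 strands went from 0.69 to -0.02, and that of all miRNAs from 0.34 to 0.06.

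Over all miRNAs 7.97% were lower and 0.997% higher, and single calls in lists of 7 to 12 members show nothing about those lists. Of the 12 measured miRNAs linked to fat cell differentiation, 1 was higher (miR-378) and 1 lower (miR-204). miR-335, another adipose miRNA, was at 3.91, 3.07, 3.22 and 3.00 against 5.88, 4.61, 4.19, 3.73 and 3.65 and was not called (1.11, SE 0.59). miR-193, matched to RefSeq miR-193a-3p, and miR-365 differed by -0.05 (SE 1.03) and 0.62 (SE 0.40). For miR-365 it was 0.01 (SE 0.41) without replicate 1 of the lower dose. Of 6 miRNAs described to target Pparg 0 were called, such as miR-27a with 12.49, 11.75, 11.74 and 11.96 against 11.39, 11.27, 11.82, 11.16 and 11.32 (-0.59, SE 0.67). Of 7 p53-responsive miRNAs 1 was lower, the minor strand miR-34b*, while miR-34b was at 3.59, 3.69, 7.48 and 3.57 against 4.18, 4.78, 5.10, 3.83 and 3.91. Of the 9 strands of miR-99, miR-100 and miR-125 1 was lower, miR-99b*. Hypoxia-responsive miR-210 was at 3.60, 5.82, 5.82 and 4.61 against 5.85, 7.54, 7.23, 7.10 and 5.75 and was not called (1.73, SE 0.81, limma adjusted p = 0.217).

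Markers of other cells were not called either, beside 8.97% of all miRNAs, and 0 calls in lists this small show nothing about those cells. Several of the markers were higher on some arrays of the higher dose. The 9 muscle miRNAs had a median difference of 1.02 and list medians of 3.45 to 4.89 at the lower and 3.48 to 6.66 at the higher dose. The 12 fibroblast and mesenchymal miRNAs had a median difference of 0.97, and 0.45 without replicate 1 of the lower dose, with miR-214 at 3.33, 3.67, 4.67 and 3.49 against 6.32, 7.24, 6.32, 8.51 and 3.36 (2.56, SE 1.14, limma adjusted p = 0.189). The 3 red cell miRNAs had a median difference of 1.21, the 5 leukocyte miRNAs 0.74 and the 2 endothelial miRNAs 0.89, and 0 of these were called. Without that replicate the endothelial median was 0.39. Of the 8 injury and inflammation miRNAs 0 were called, and their median went from 0.36 to -0.23 without that replicate, with miR-21 between 13.94 and 15.39 on all 9 arrays. Their part in the called miRNAs was not tested.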

How the data were processed

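Per the labels' protocols, 0.1 ug of total RNA from scraped rat urothelium was labelled with Cy3 by an Agilent miRNA kit for 1-colour arrays. The authors deposited log2 intensities of 301 miRNAs on 119 arrays. RMA and limma are named, with no version, per the submitters' processing notes. How background was corrected and miRNAs were filtered is not given in the sources used here. Array medians differ, so the deposited log2 values do not have equal quantiles. No batch, slide or scan date is given in the labels. No depth applies, and the number of arrays and the floor limit the precision.

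The values were used as deposited, without 3 arrays that the labels mark as failing quality control, which are not among the 9 compared. limma 3.58.1 (R 4.3.3) was fitted with 24 group means to 116 arrays (92 residual and 2.33 prior degrees of freedom, median residual SD 0.858). Moderated two-sided p-values were adjusted by Benjamini-Hochberg over 301 miRNAs within each contrast, at 0.05. The median 95% interval of the main contrast reached 1.14 to either side. Exact permutation tests used all 126 splits of 9 arrays. In simulated data for this contrast with 301 miRNAs, 23 of 30 miRNAs changed by 2 and 30 of 30 changed by 4 (log2) were called, with 2 false calls. The simulated noise was normal and independent, with 1 SD per miRNA in all 24 groups and no floor. The real groups differ in spread and reach a floor, so these rates need not hold for them.

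The miRNAs named were up to 15 higher and 15 lower with the largest differences among those called, non-overlapping ones first, up to 5 each way for the day and sex contrasts, and members of lists as examples. The groups, members, lists and rules were chosen with earlier results of these data known. Names are the table's. Strands were matched to RefSeq by name for 60 miRNAs, by arm for 192 and by the only arm listed for 4, with the main arm of a hairpin taken from general knowledge for names without one, and 6 were ambiguous and 39 had no match. Alternatives changed the groups fitted, the arrays, the scaling, the filter, the variance model and the replicate block. Python 3.11.15 with pandas 2.3.3 and matplotlib 3.10.9 handled sequences and figures.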

Additional observations from a re-analysis of the deposited data

Results flagged for a closer look

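Among the 18 named miRNAs and the array medians, 38 groups of 4 or 5 arrays were checked for an outlying array. Its gap to the nearest other, as a share of the group's range, was set against Dixon's 95% critical value. Chance exceeds that value in about 1 of 20 independent normal samples. These miRNAs were chosen for their difference and share 9 arrays, so that rate need not hold and the count carries no test. The critical value was exceeded in 11 groups. In 10 of them the array was replicate 1 of the higher dose, which lay above the rest of its group. The share was 0.930 for miR-211, 0.926 for let-7b*, 0.913 for miR-328b-3p, 0.717 for miR-207, 0.873 for miR-349, 0.878 for miR-3550, 0.800 for miR-487b*, 0.958 for miR-346, 0.775 for miR-3596b and 0.786 for miR-154. The other was miR-328b-3p on replicate 4 of the lower dose (0.857), at 8.61 above a range of 6.93 to 7.17. These 10 miRNAs stand on the same array and are not separate observations of it. Without that array 31 miRNAs were called, 24 of them the same lower and 3 the same higher ones.

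The dose difference in males at day 28 differed from its mean at days 3 and 90 for 20 miRNAs. The differences were 3.12 for miR-144, -4.23 for miR-211, -3.77 for let-7b*, -3.59 for miR-328b-3p, -3.45 for miR-207 and -2.99 for miR-702-3p. It differed from the difference in females at day 28 for 18 miRNAs, by 3.34 for miR-664-1*, 0.85 for miR-376b-5p, -4.34 for miR-211, -3.70 for let-7b*, -3.68 for miR-328b-3p, -3.39 for miR-207 and -3.35 for miR-702-3p. The days and sexes were tested through contrasts of the limma fit, which hold the same day-28 male arrays as the main comparison. At the other days and in females, miR-211, let-7b*, miR-328b-3p and miR-207 were near the floor at both doses. A fall at the higher dose could hardly show there.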

How the results depend on the processing

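The main comparison called 27 miRNAs, the comparison with days 3 and 90 called 20 and that with females 18. Beyond 1.5 times these counts lay, for the main comparison, 16 calls on its 2 groups alone, 0 on the 4 male day-28 groups, 17 with the failed arrays kept, 0 of the 150 brighter miRNAs (15 unadjusted), which hold none of the 24 lower ones, and 46 with array weights, whose estimate did not fully converge. For the comparison with days 3 and 90 they were 12 with the failed arrays kept, 10 with arrays centred on their median, 0 of the brighter miRNAs (6 unadjusted) and 41 with array weights. For that with females they were 0 with the failed arrays kept (8 unadjusted), 0 with arrays centred (29 unadjusted), 0 of the brighter miRNAs (1 unadjusted) and 33 with array weights. The cause was not tested, except that fewer miRNAs or groups enter some fits by construction. Leaving out 1 array gave 19 to 31, 12 to 26 and 4 to 21 calls, and the 12 and the 4 came without replicate 4 of the lower dose. A covariate for each array's median gave 14 higher and 25 lower calls in place of 3 and 24, and all 27 were among them. Centring each array on its median gave 3 higher and 15 lower, with 15 of the 24 lower and 0 of the 3 higher calls among them. Quantile normalization gave 5 higher and 27 lower and moved the median difference of all miRNAs from 0.34 to 0.17. Same-numbered arrays of the 2 doses did not deviate together (r = -0.11, -0.002, 0.03 and -0.30), and with the replicate block there were 26, 18 and 17 calls. Leaving out replicate 1 of both doses, a choice made after seeing the data, gave 32, 28 and 22. Of 362 values of the 18 named miRNAs under these alternatives, 301 kept their call, 61 lost it and 0 changed direction, and 0 of the 18 kept it under all, since the fit on the 4 male day-28 groups called 0. Differences near the floor are compressed, and the table gives no signal over background.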
